A study of Mus musculus with 199 samples.

Results

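The genes described here are 36 genes of glucose uptake, glycolysis, lactate and pyruvate handling, and the response to low oxygen. They were chosen by symbol, whatever their level, from the 31581 genes of a table of mouse small-cell lung cancer RNA, and all 36 were found in it. By role they comprise 2 glucose transporters, 9 genes of the upper and 6 of the lower part of glycolysis, 6 genes that decide the fate of pyruvate and lactate, 9 other targets of the hypoxia response and 4 genes of oxygen sensing.

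KP1 is a small-cell lung cancer line explanted from a mouse tumour, with the genotype Rb1-/-Trp53-/-. It was grown as spheroids in culture, in immunocompromised nude mice as liver colonies, and likewise in immunocompetent F1 mice. Each capture held 10 cells cut by laser from a frozen section, and there were 28 spheroid, 33 nude liver and 31 F1 liver captures. A further 20 spheroid, 35 nude liver and 24 F1 liver libraries, called pools here, were 10-cell equivalents split from pooled material. RPC is a line of pre-cancerous cells with the genotype Rb1-/-Trp53-/-p130-/+Crebbp-/-, and 24 captures were taken from its spheroids. Rb1 and Trp53 are thus deleted in every group, so none is a wild-type control. Bulk spheroids gave 1 library each of KP1, KP2 (Rb1-/-Trp53-/-Ptch1+/lacz), KP3 (Rb1-/-Trp53-/-Axin2+/lacz) and KP5 (Rb1-/-Trp53-/- BAT-GAL), made by another protocol. The host strain differs between nude and F1 mice along with their immune state, and each genotype is 1 line. The labels give no count of animals or cultures, nor the hosts' age, so p-values measure the spread between captures.

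Glycolysis splits glucose into pyruvate, and lactate dehydrogenase turns pyruvate into lactate when mitochondria do not use it. At low oxygen the prolyl hydroxylases of the Egln family stop marking hypoxia-inducible factors for destruction. The stabilised factors, Hif1a and Epas1 paired with Arnt, then raise transcription of glucose transporters, of most glycolytic enzymes and of genes such as Vegfa and Bnip3 through a short DNA element. Tumour cells often use glycolysis at normal oxygen as well.

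Many of these genes are known to be controlled through that element, which is why it is shown here. Its core is ACGTG or GCGTG, and only ACGTG was searched. ACGTG was searched on both strands, so that CACGT also counts and CACGTG counts as 2 matches, in the 250 bases before each start of transcription listed by RefSeq for GRCm38.p6. Of the 36 genes 33 had an entry, and 21 of these (63.6%) held a match before at least 1 start, against 18.5% of 27025 genes. Counted over starts, the shares were 50% of 46 and 16.6% of 32851. Many of the members were chosen for their part in the hypoxia response. The other genes were not matched to them for promoter sequence, so these shares do not test joint control. A match is a string of letters and no evidence of binding, and a gene without a match may still hold GCGTG, which is not marked. The last 150 bases before the start are given for 5 genes that rose in RPC captures, read 5′ to 3′ along the gene's strand with matches in capitals. For genes with several starts, the start with most matches is shown.
Pgk1: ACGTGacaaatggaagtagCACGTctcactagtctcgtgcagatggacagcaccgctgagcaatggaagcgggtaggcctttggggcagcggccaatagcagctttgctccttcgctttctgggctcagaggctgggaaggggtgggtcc
Ldha: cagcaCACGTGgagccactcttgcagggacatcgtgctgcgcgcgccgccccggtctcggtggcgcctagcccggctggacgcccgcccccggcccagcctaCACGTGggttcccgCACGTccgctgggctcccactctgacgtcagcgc
Aldoa: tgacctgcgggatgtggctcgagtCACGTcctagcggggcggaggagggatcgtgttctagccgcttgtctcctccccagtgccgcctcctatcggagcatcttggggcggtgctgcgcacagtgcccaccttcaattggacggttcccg
Bnip3: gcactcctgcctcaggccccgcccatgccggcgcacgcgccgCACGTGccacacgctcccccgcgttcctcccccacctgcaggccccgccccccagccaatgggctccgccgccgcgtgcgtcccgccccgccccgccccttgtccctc
P4ha2: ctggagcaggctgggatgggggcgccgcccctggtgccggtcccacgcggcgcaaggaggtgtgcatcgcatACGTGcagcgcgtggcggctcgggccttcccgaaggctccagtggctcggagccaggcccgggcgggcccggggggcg
These windows lie at chrX:106186950-106187099, plus strand, for Pgk1, at chr7:46845654-46845803, plus strand, for Ldha, at chr7:126799255-126799404, minus strand, for Aldoa, at chr7:138909507-138909656, minus strand, for Bnip3, and at chr11:54100774-54100923, plus strand, for P4ha2. The 5 matches of Ldha fall at 3 places, since the palindrome CACGTG stands at 2 of these. Of the other genes that rose in RPC captures, Pgam1, Pkm and P4ha1 held a match in their searched windows, and Gpi1, Eno1 and Eno2 held none. Tpi1, Gapdh, Aldoc and Ldhb, which rose in liver captures, held none either.

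Library depth ran from 3775229 to 5308787 gene counts in spheroid captures, from 718208 to 4239792 in nude liver captures, from 1646395 to 5432858 in F1 liver captures and from 3485529 to 7557773 in RPC captures. Levels are given as CPM, each count scaled to a common library total of gene counts, which does not correct for gene length, so levels are compared between groups and not between genes. Summed neuroendocrine markers (9 genes), which define this cancer, had medians of 1885, 1245, 1404 and 1248 CPM in spheroid, nude liver, F1 liver and RPC captures. Summed hepatocyte markers (9 genes) came to 33.4 to 5442 CPM (median 836) in nude liver captures and 0 to 1910 CPM (median 183) in F1 liver captures, against 0 to 99.2 CPM (median 1.11) in spheroid captures, where Alb, Apoa1, Serpina1a and Fgb had no count. Erythrocyte markers (5 genes) summed to 0.593 to 3743 CPM (median 551), 0 to 32920 CPM (median 1622) and 0 to 31.3 CPM (median 0) in the same order. Each capture is bulk RNA of its cells, so fewer cells of a type and less RNA per cell cannot be told apart. Spheroid libraries fell into 9 captures with at least 0.1% of counts from the ERCC spike-in and 19 with less, and 25 of 31 F1 captures had at least 200 CPM of the pseudogene Rpl19-ps11. The labels name no batch, so these splits are subsets read from the files, and comparisons of mean level are repeated in each. Differences in spread were not. Of the other captures, all 33 nude, all 31 F1 and 22 of 24 RPC libraries had at least 0.1% spike-in.

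A gene is called higher or lower here where edgeR's test with TMM scaling gave an adjusted p under 0.05 over all genes that passed the filter on low counts. Some members were called only by other analyses, which are then named.

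In RPC captures against KP1 spheroid captures, more of these genes were higher than lower. Of the 29 members that passed the filter on low counts, 11 rose (10.3% of 8600 genes tested were higher) and 1 fell, the glucose transporter Slc2a1 (11.6% were lower). The rise covered 5 of the 6 genes of lower glycolysis, 2 of 8 tested in upper glycolysis, Ldha, and 3 of 6 tested hypoxia targets. The median log2 fold change of the 29 was 0.75, against 0.01 over all genes. With library totals as the only scaling the median of all genes moved to 0.25, and the split over all genes went from 885 higher and 1000 lower to 1116 and 675, while 14 members were higher and 1 lower. RLE scaling likewise gave 1131 higher and 826 lower genes. Against the 9 spheroid captures with spike-in 4 of 31 tested members were higher and 1 lower, near the shares of all genes (10.2% and 7.78%). Only 3 of the 12 calls were kept there (Slc2a1, Pgk1 and P4ha2), and Hk2 (4.73, adjusted p 0.00404) and Vegfa (2.90, adjusted p 0.0403) were the other 2 called. Against the 19 without spike-in 12 of 29 tested members were higher and 1 lower (9.7% and 8.93% of all genes).

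In nude liver captures against spheroid captures, 6 of 27 tested members rose (17.7% of 7834 genes were higher) and 4 fell (16% were lower), shares of members near those of all genes. Tpi1, Pgam1, Eno1, Pkm, Ldha and P4ha1 rose, and Pfkp, Pdk1, Bnip3 and Hif1a fell. The median over members was 0.30, against -0.03 over all genes. Limited to the 11 nude liver captures with under 500 CPM of hepatocyte markers, 4 members were higher and 1 lower (7.9% and 8.59% of all genes). The balance turned with the spheroid captures used: against the 19 without spike-in 5 members were higher and 1 lower (15.6% and 13.1% of all genes), and against the 9 with spike-in 1 was higher and 4 lower (12.4% and 7.13%). The latter were Tpi1, higher, and Pfkp, Pdk1, Bnip3 and Hif1a, lower.

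Markers of endothelial and stellate cells (9 genes) also moved with the liver groups, with sums of 0.706 to 189 CPM (median 56.0) in spheroid, 64.5 to 479.5 CPM (median 209) in nude liver, 1.29 to 813 CPM (median 82.5) in F1 liver and 0 to 29.0 CPM (median 1.36) in RPC captures. In KP1 captures most of the mean sum was Des, and Cdh5, Lyve1 and Dcn had no count in spheroid captures. Of these markers Pecam1 (log2 fold change 5.16, adjusted p 4.29e-09) and Des (log2 fold change 1.64, adjusted p 1.23e-04) were the 2 tested in nude liver, and both were higher. The part of other cell types in the members' differences was not tested.

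In F1 liver captures against the same spheroid captures, 6 of 24 tested members rose (7.73% of 7309 genes were higher) and none fell by edgeR (4.91% were lower). By edgeR 0 were lower at an unadjusted p under 0.05, and by DESeq2 0 were (6.05% of all genes). By limma-voom 4 were lower, near its share of all genes (18.2%). The 6 that rose were Aldoc, Tpi1, Gapdh, Pkm, Ldha and Ldhb. The median over members was 0.12, below the 0.22 over all genes. Library totals alone moved the median of all genes to -0.03, turned the split over all genes from 565 higher and 359 lower to 254 and 457, and left 3 members higher and 1 lower, Slc2a1. Against the 9 spheroid captures with spike-in edgeR called 0 of 29 members, where 1.39% and 0.562% of all genes were higher and lower. With the 6 F1 captures low in Rpl19-ps11 none of the 6 calls was kept and 1 of 30 members was lower, Ankrd37 (-6.33, adjusted p 0.0345), where 1.96% and 1.6% of all genes were higher and lower.

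Between the liver groups, F1 captures had 4 of 25 tested members higher than nude captures (10.5% of 7064 genes were higher), namely Pfkp, Gapdh, Ldhb and Pdk1, and 2 lower, Tpi1 and Eno1 (7.9% were lower). The median over members was 0.32, against 0.24 over all genes. Library totals alone moved the latter to -0.14, the split over all genes from 745 higher and 558 lower to 261 and 852, and the members to 1 higher and 2 lower. Other analyses of F1 against nude liver also called Aldoc higher (DESeq2, 1.60, adjusted p 0.0114), as without a filter, with all groups in one fit and with the F1 captures high in Rpl19-ps11, where Pkm was higher too (0.56, adjusted p 0.0243). P4ha1 was lower by limma-voom (-2.23, adjusted p 0.00909) and with the replicate block (-3.55, adjusted p 0.0298), and Slc16a3 by limma-voom (-1.62, adjusted p 0.0466). Epas1 was higher without a filter (2.72, adjusted p 0.0186), where 13.2% of 19872 genes were higher. The 3 comparisons with spheroids share the spheroid captures, and this one shares a liver group with 2 of them, so the comparisons are not independent. In none of these comparisons did a tested member's range in one group clear that in the other, which was so for 0.0128% of all genes in nude liver, 0.0274% in F1 liver, 0% between them and 0.756% in RPC.

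**Figure D1:**
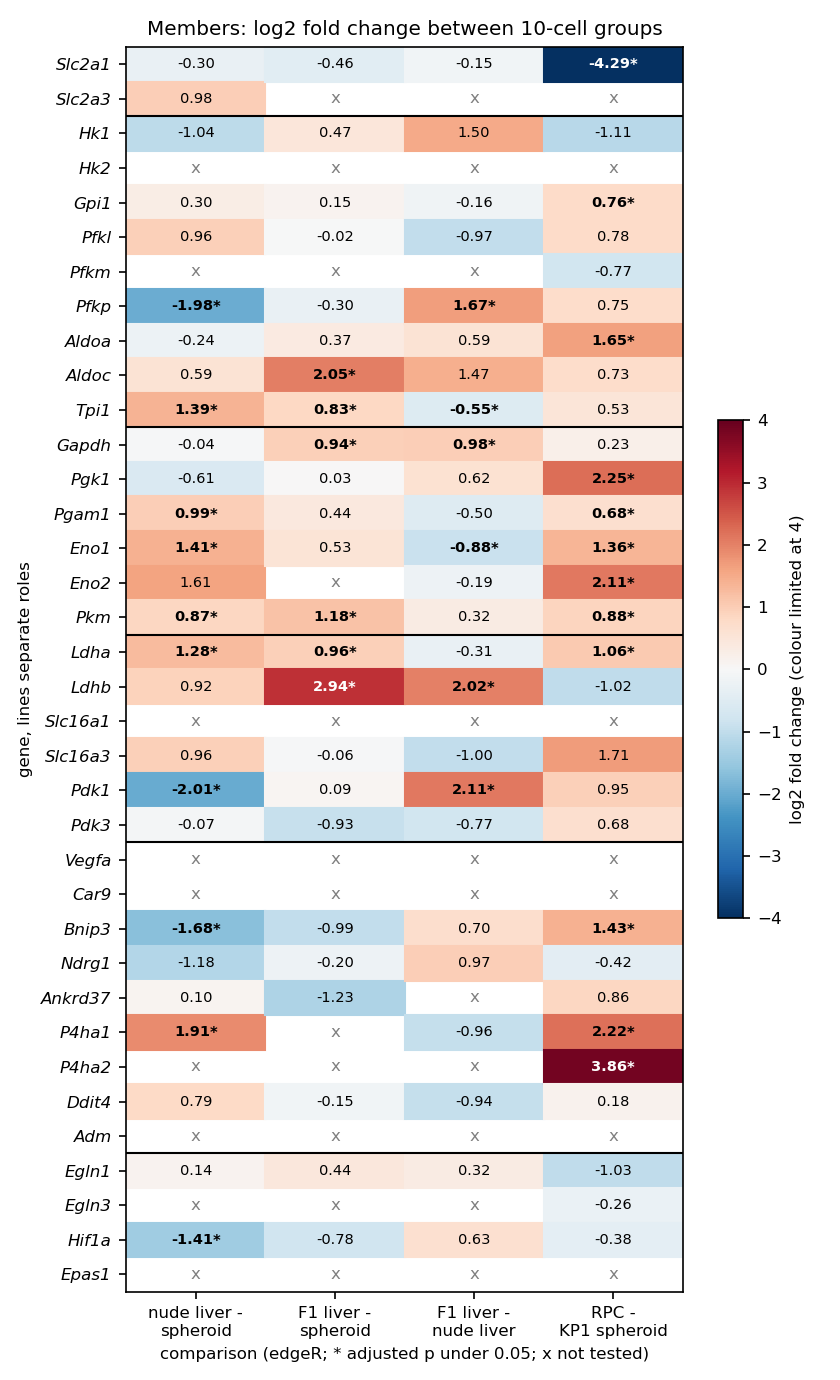
Log2 fold change of each member (rows, in order of role) in 4 comparisons of 10-cell captures (columns), from edgeR. Bold values with a star had an adjusted p under 0.05, and a cross marks members that did not pass the filter on low counts. The RPC column is positive through lower glycolysis and has the lowest value of the plot, -4.29 for Slc2a1.

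Slc2a1 (Glut1, chr4:119108711-119137983 on GRCm38) encodes the glucose transporter that most tumour cells depend on. Its level was 119 to 2738 CPM (median 512) in spheroid captures, 3.35 to 2236 CPM (median 463) in nude liver, 31.7 to 1267 CPM (median 323) in F1 liver and 0 to 148 CPM (median 27.4) in RPC captures. None of the 24 RPC captures reached the KP1 spheroid median, although the ranges overlapped between 119 and 148 CPM. The difference was 19.5-fold (log2 fold change of -4.29 with an SE of 0.43, adjusted p 8.76e-13). It was of like size against spheroid captures with spike-in (-4.67) as without (-4.07), and the call was kept in 15 of 15 alternative analyses. Between KP1 environments Slc2a1 was not called: the log2 fold change was -0.30 for nude liver, with an adjusted p of 0.462, and -0.46 for F1 liver, with an adjusted p of 0.261, both against spheroids. With library totals alone the F1 difference was called (-0.79, adjusted p 0.0394).

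Many genes on one side of Slc2a1 were lower in RPC captures as well. Of 12 tested genes that start within 1 Mb on its far side, 11 were lower in RPC captures, with a median log2 fold change of -3.15. In the next Mb 9 of 9 were lower, with a median of -3.51. On the near side the picture changed at once: of 7 tested genes within 1 Mb, 1 was lower and 1 higher, with a median of -0.084, and the 3 Mb before that held no lower gene among 35 tested. The lower stretch ran on to 4.81 Mb, past Mycl, a Myc-family oncogene of neuroendocrine tumours (log2 fold change -8.74, adjusted p 2.30e-15), and ended before the 11 tested genes between 5 and 6 Mb, of which 1 was lower. Slc2a1 was the first tested gene of the stretch. Within 1 Mb on both sides the median of the 19 tested neighbours was -2.47, and around the other called members such medians ran from -0.89 to 0.54.

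Bulk libraries, 1 per line, also differed across this position. Slc2a1 was at 1434 CPM in KP1, 207 in KP3, 89.9 in KP2 and 32.6 in KP5. Its neighbour Foxj3, a transcription factor 0.43 Mb away, had 3339, 2043, 216 and 111 CPM in the same order. Over the first and second Mb past Slc2a1, KP1 stood above the median of the other lines by a median log2 ratio of 3.17 and 4.07. Before Slc2a1 this ratio lay between 0.082 and 0.46 in the 4 windows of 1 Mb, and around Mycl, between 3 and 4 Mb, it was 0.65. Mycl itself had 8022, 7706, 7510 and 9111 CPM in KP1, KP3, KP2 and KP5. Foxj3 and Mycl were singled out after their values were seen. DNA copy number was not measured in these libraries.

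**Figure D2:**
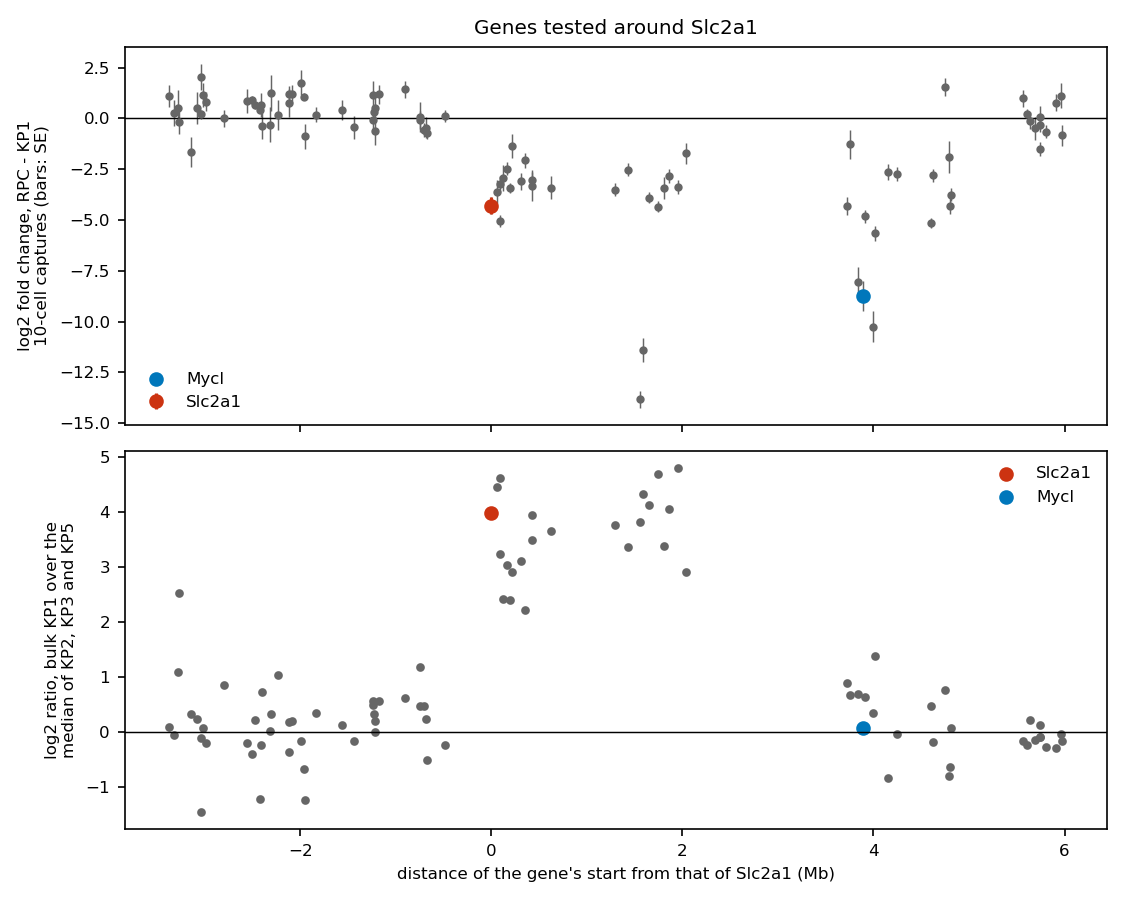
Genes tested around Slc2a1, by distance of their start from its start in Mb. The upper panel gives the log2 fold change of RPC against KP1 captures with its SE, and the lower the log2 ratio of bulk KP1 (CPM + 1) to the median of the 3 other lines. Both step at Slc2a1, and between 3 and 4 Mb, which holds Mycl, the median was 0.65 in the lower panel and -6.45 in the upper.

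Slc2a3 (Glut3), a transporter of neurons and white blood cells, was low: 0 to 43.3 CPM (median 0.479) in spheroid captures, 0 to 172 CPM (median 2.39) in nude liver, 0 to 296 CPM (median 0.688) in F1 liver and 0 to 4.32 CPM (median 0.633) in RPC captures. Single liver captures reached high values in groups whose medians stayed under 3 CPM.

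In the upper part of glycolysis, Hk1 and Hk2 encode the hexokinases that trap glucose in the cell. Hk1, the constitutive form, had medians of 6.28, 2.43, 2.51 and 2.92 CPM in spheroid, nude liver, F1 liver and RPC captures, and was called in no comparison of captures. Hk2, the form tied to hypoxia and tumours, passed the filter in none of the comparisons that use all captures. It was counted in 7 of 28 spheroid captures (highest 9.11 CPM), 14 of 33 nude liver, 6 of 31 F1 liver and 24 of 24 RPC captures, where it was 0.132 to 53.4 CPM (median 3.59). A fit without the filter gave Hk2 a log2 fold change of 3.94 in RPC captures (SE 0.83, adjusted p 1.47e-04). The same fit called other members that did not pass the filter: Slc16a1 (3.37, adjusted p 3.86e-04), Epas1 (2.07, adjusted p 0.00825) and Adm (adjusted p 0.00132) were higher in RPC captures and Slc2a3 was lower (-2.54, adjusted p 0.0148). Epas1 was also higher in nude liver (4.38, adjusted p 4.53e-06) and F1 liver (7.16, adjusted p 3.14e-06). Without the filter many genes were called: 18.2% of 19396 were higher and 13.4% lower in RPC captures. In nude liver 27.0% of 20050 were higher and in F1 liver 16.8% of 19000.

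Aldoa encodes the main aldolase, which splits the 6-carbon sugar. It was 16.9 to 2065 CPM (median 246) in KP1 spheroid captures and 166 to 3787 CPM (median 863) in RPC captures, 3.14-fold higher (log2 fold change of 1.65 with an SE of 0.30, adjusted p 2.47e-05), with 22 of 24 RPC captures above the KP1 median and overlapping ranges. Against spheroid captures with spike-in the value was 1.02 (adjusted p 0.113). Gpi1, which turns glucose-6-phosphate into fructose-6-phosphate, was 1.69-fold higher in RPC captures (adjusted p 0.00937). Aldoc, the aldolase of brain, was 0.209 to 474 CPM (median 47.8) in F1 liver against 0 to 122 CPM (median 24.0) in spheroid captures (log2 fold change of 2.05 with an SE of 0.60, adjusted p 0.0149), a call lost in 5 of 19 alternatives. The F1 captures with little Rpl19-ps11 (6 libraries) gave a smaller value: the log2 fold change was 0.47 (adjusted p 0.835), against 2.33 in the other 25.

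Tpi1 encodes triosephosphate isomerase, which interconverts the products of that split. Its level was 96.5 to 2465 CPM (median 782) in spheroid captures and 581 to 4650 CPM (median 2352) in nude liver captures, with 32 of 33 of the latter above the spheroid median. The difference was 2.63-fold (log2 fold change of 1.39 with an SE of 0.19, adjusted p 1.44e-08). This call was the only one among the 3 comparisons of liver captures that was kept in all its alternative analyses (17 of 17), among them the 11 nude captures low in hepatocyte markers (1.28 (adjusted p 3.43e-04)) and either subset of spheroid captures (0.94 and 1.61). In F1 liver Tpi1 was 198 to 3412 CPM (median 963), between the other groups: 1.78-fold above spheroids (log2 fold change of 0.83 with an SE of 0.23, adjusted p 0.00924) and 1.46-fold below nude liver (log2 fold change of -0.55 with an SE of 0.20, adjusted p 0.0400). The latter call was lost in 7 of 17 alternatives, among them DESeq2 (-0.50 (adjusted p 0.0982)) and captures low in hepatocyte markers (-0.30 (adjusted p 0.691)). In RPC captures Tpi1 was not called by edgeR (0.53, adjusted p 0.0623), but was with RLE scaling (0.67, adjusted p 0.0123), library totals alone, limma-voom, the replicate block and the spheroid captures without spike-in.

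Phosphofructokinase commits sugar to glycolysis and has 3 subunit genes. Pfkp, the platelet form, was 0 to 602 CPM (median 102) in spheroid, 0 to 202 CPM (median 18.5) in nude liver and 0 to 646 CPM (median 31.8) in F1 liver captures. It fell in nude liver (log2 fold change of -1.98 with an SE of 0.47, adjusted p 6.47e-04), where 3 of 33 captures exceeded the spheroid median, and was lower there than in F1 liver (log2 fold change of 1.67 with an SE of 0.59, adjusted p 0.0366). The difference between hosts was lost in 8 of 17 alternatives, among them library totals alone (1.21 (adjusted p 0.173)) and captures low in hepatocyte markers (1.71 (adjusted p 0.345)). With the hepatocyte marker score as a covariate the fall in nude liver was -2.85 (adjusted p 0.0796), and among captures low in those markers it was -1.97 (adjusted p 0.0307). The liver form Pfkl (medians 30.9, 79.5, 32.5 and 62.7 CPM in spheroid, nude liver, F1 liver and RPC captures) was not called between captures by edgeR. In nude liver limma-voom (1.73, adjusted p 0.00231) and DESeq2 (1.11, adjusted p 0.0191) called it higher than in spheroids, and F1 against nude liver both called it lower (-1.66, adjusted p 0.0133, and -1.02, adjusted p 0.0390). Pfkp was likewise higher in RPC captures with limma-voom (1.20, adjusted p 0.0166), RLE scaling or library totals alone, and not by the main test (0.75, adjusted p 0.118). The muscle form Pfkm passed the main filter only in the RPC comparison (-0.77, adjusted p 0.550).

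In the lower part of glycolysis, Pgk1 encodes phosphoglycerate kinase, the first step to make ATP. It was 16.8 to 1615 CPM (median 329.7) in KP1 spheroid captures and 1029 to 6100 CPM (median 2306) in RPC captures, and 24 of 24 RPC captures lay above the KP1 median. The ranges overlapped between 1029 and 1615 CPM. The difference was 4.74-fold (log2 fold change of 2.25 with an SE of 0.26, adjusted p 2.37e-10), was called against either subset of spheroid captures (1.82 with and 2.49 without spike-in) and was kept in 15 of 15 alternatives. Pgk1 lies on the X chromosome (chrX:106187100-106203699), and the 3 tested genes within 1 Mb had a median log2 fold change of 0.44. In liver it was not called by edgeR: 0 to 959 CPM (median 284) in nude and 59.9 to 953 CPM (median 329.8) in F1 captures, with log2 fold changes of -0.61 (adjusted p 0.272) and 0.026 (adjusted p 0.972) against spheroids. By limma-voom it was lower in nude liver than in spheroids (-1.38, adjusted p 0.0284) and higher in F1 than in nude liver (adjusted p 0.0228).

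Eno1 encodes the common enolase and Eno2 the neuronal one. Eno1 was 5.65 to 548 CPM (median 78.1) in spheroid and 82.2 to 909 CPM (median 270.3) in nude liver captures, 2.66-fold higher (log2 fold change of 1.41 with an SE of 0.29, adjusted p 8.38e-05), and 33 of 33 nude liver captures exceeded the spheroid median. F1 liver captures, at 5.56 to 354 CPM (median 144), were 1.84-fold below nude liver (log2 fold change of -0.88 with an SE of 0.31, adjusted p 0.0331). In the captures low in hepatocyte markers the first difference was 0.87 (adjusted p 0.124) and the second -0.26 (adjusted p 0.827), neither called. RPC captures, at 50.2 to 807 CPM (median 303), were 2.57-fold above KP1 spheroids (adjusted p 5.85e-04). Against spheroid captures with spike-in the nude liver value was 0.78 (adjusted p 0.180) and the RPC value 0.72 (adjusted p 0.232). Eno2 reached 0.214 to 36.9 CPM (median 8.31) in RPC captures, against 0 to 12.4 CPM (median 0.234) in KP1 spheroids (log2 fold change of 2.11 with an SE of 0.68, adjusted p 0.0190). The call was lost against either subset of spheroid captures, at 2.42 (adjusted p 0.0863) with and 1.98 (adjusted p 0.0540) without spike-in. In nude liver Eno2 was called higher by limma-voom (1.81, adjusted p 0.0182), DESeq2 (1.75, adjusted p 0.0420) and the replicate block (2.82, adjusted p 0.0268), but not by the main test (adjusted p 0.0711). The Eno2 median stayed under 10 CPM in every group of captures.

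Pkm encodes pyruvate kinase, the last step of glycolysis. It was 622 to 4560 CPM (median 1384) in spheroid, 589 to 4891 CPM (median 3227) in nude liver, 963 to 7084 CPM (median 2350) in F1 liver and 813 to 5164 CPM (median 3007) in RPC captures, so all 3 other groups had higher medians than spheroids. The differences were 1.83-fold in nude liver (log2 0.87, SE 0.15, adjusted p 3.17e-06), 2.27-fold in F1 liver (log2 1.18, SE 0.20, adjusted p 1.42e-05) and 1.84-fold in RPC (log2 0.88, SE 0.22, adjusted p 0.00157). Against the 9 spheroid captures with spike-in they shrank to 0.48 (adjusted p 0.125), 0.87 (adjusted p 0.194) and 0.46 (adjusted p 0.362), and none was called. The F1 difference was 0.16 (adjusted p 0.812) in the 6 captures low in Rpl19-ps11. Gene counts do not resolve splice forms, so the M1 and M2 forms of the enzyme cannot be told apart.

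Gapdh, the dehydrogenase that serves as a loading control in many assays, was 923 to 4662 CPM (median 1848) in spheroid, 300.4 to 3553 CPM (median 2226) in nude liver, 804 to 7392 CPM (median 2618) in F1 liver and 455 to 4559 CPM (median 2499) in RPC captures. It did not differ by the test in nude liver (log2 -0.044, SE 0.18) or RPC captures (log2 0.23, SE 0.22). F1 liver captures were 1.92-fold above spheroids (log2 fold change of 0.94 with an SE of 0.19, adjusted p 3.01e-04) and 1.97-fold above nude liver (log2 fold change of 0.98 with an SE of 0.19, adjusted p 8.67e-05). Both were kept among captures low in hepatocyte markers (1.14 and 1.15). Against spheroid captures with spike-in the first was 0.48 (adjusted p 0.475), and in the 6 F1 captures low in Rpl19-ps11 they were 0.20 (adjusted p 0.759) and 0.31 (adjusted p 0.596). Annotated transcripts of other genes, nearly all pseudogenes, match Gapdh over at least 200 bases at 95% identity or more. Summed with those in the table, the differences were 0.96 and 0.79. Pgam1, phosphoglycerate mutase, rose in nude liver (1.99-fold, adjusted p 0.0111) and in RPC captures (1.60-fold, adjusted p 0.0484), and the latter was lost in 5 of 15 alternatives.

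**Figure D3:**
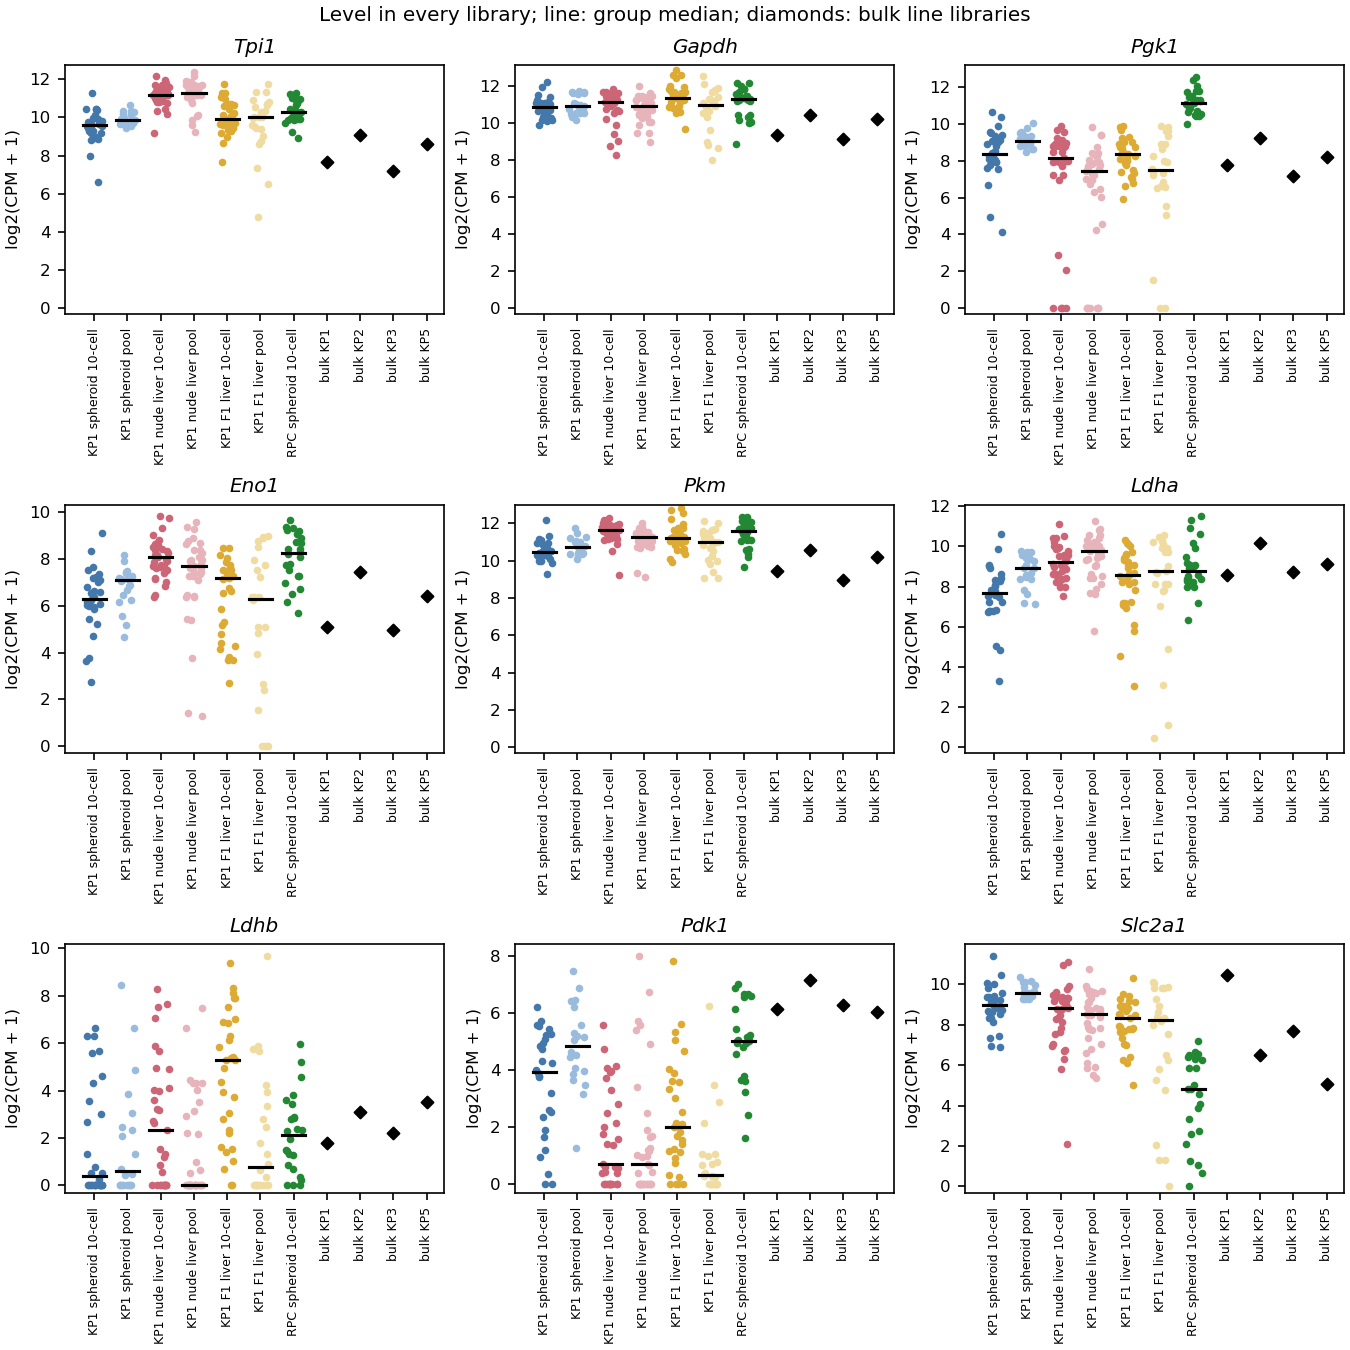
Log2(CPM + 1) of 9 members in every library, by group. Each dot is 1 library, the black line the group median, and each diamond the single bulk library of a line, made by another protocol. Pgk1 stands higher in RPC captures than in every KP1 group, and Slc2a1 lower, while Tpi1 and Eno1 are highest in nude liver among the KP1 captures.

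Ldha and Ldhb encode the subunits of lactate dehydrogenase, the first favouring lactate formation and the second its use. Ldha was 8.82 to 1594 CPM (median 205) in spheroid, 185 to 2197 CPM (median 603) in nude liver, 7.12 to 1274 CPM (median 378) in F1 liver and 78.4 to 2947 CPM (median 436) in RPC captures. It rose 2.42-fold in nude liver (log2 fold change of 1.28 with an SE of 0.28, adjusted p 1.69e-04), also among captures low in hepatocyte markers (1.54 (adjusted p 0.00226)), and 2.08-fold in RPC (log2 fold change of 1.06 with an SE of 0.30, adjusted p 0.00759). Against the 9 spheroid captures with spike-in both calls were lost, at 1.02 (adjusted p 0.0976) and 0.76 (adjusted p 0.282). The F1 rise was 1.94-fold (log2 fold change of 0.96 with an SE of 0.32, adjusted p 0.0388), and was lost in 7 of 19 alternatives.

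Ldhb had counts in 15 of 28 spheroid captures (0 to 97.3 CPM (median 0.313)), 22 of 33 nude liver captures (0 to 313 CPM (median 4.12)) and 29 of 31 F1 liver captures (0 to 659 CPM (median 37.8)). The F1 level was 7.65-fold above spheroids (log2 fold change of 2.94 with an SE of 0.84, adjusted p 0.0127) and 4.05-fold above nude liver (log2 fold change of 2.02 with an SE of 0.74, adjusted p 0.0455), and 29 of 31 F1 captures exceeded the spheroid median. In the 6 F1 captures low in Rpl19-ps11 the first was 1.77 (adjusted p 0.497) and the second 0.95 (adjusted p 0.698). The second was also lost when Ldhb was summed with its sequence copies (1.91 (adjusted p 0.0602)). In RPC captures Ldhb was not called (-1.02, adjusted p 0.430).

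Pdk1 and Pdk3 encode kinases that switch off pyruvate dehydrogenase and so keep pyruvate out of mitochondria. Pdk1, a hypoxia target, was 0 to 71.8 CPM (median 14.3) in spheroid, 0 to 46.8 CPM (median 0.605) in nude liver, 0 to 221 CPM (median 3.03) in F1 liver and 2.02 to 127 CPM (median 31.3) in RPC captures. It fell 4.03-fold in nude liver (log2 fold change of -2.01 with an SE of 0.64, adjusted p 0.0107), with 5 of 33 captures above the spheroid median, and was 4.31-fold higher in F1 than in nude liver (log2 fold change of 2.11 with an SE of 0.72, adjusted p 0.0305). Among captures low in hepatocyte markers these were -1.51 (adjusted p 0.257) and 1.93 (adjusted p 0.412), and the second was lost in 8 of 17 alternatives. The first was lost in 3 of 17, also against the 19 spheroid captures without spike-in (-1.60 (adjusted p 0.0868), with -2.66 (adjusted p 0.0223) against the other 9) and with the hepatocyte covariate (-1.31 (adjusted p 0.570)). Pdk3 (medians 35.8, 14.9, 1.16 and 68.0 CPM in the same order) was not called between captures by edgeR, and was lower in F1 liver than in spheroids by limma-voom (-2.94, adjusted p 0.00495). In RPC captures limma-voom called Pdk1 higher (1.64, adjusted p 0.0104), against an adjusted p of 0.150 by edgeR. The lactate transporter genes were low: Slc16a3, the exporter induced by hypoxia, had medians of 2.16, 4.33, 0.607 and 9.60 CPM in spheroid, nude liver, F1 liver and RPC captures (RPC log2 fold change 1.71, adjusted p 0.0527, and called with RLE scaling at 1.85, adjusted p 0.0344), and Slc16a1 was counted in 4, 3, 3 and 10 captures of those groups.

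Among hypoxia targets outside glycolysis, P4ha1 and P4ha2 encode prolyl 4-hydroxylases of collagen. P4ha2 was 0 to 119 CPM (median 0.0942) in KP1 spheroid captures, with counts in 14 of 28, and 6.92 to 647 CPM (median 65.1) in RPC captures, with counts in all 24. The difference was 14.5-fold (log2 fold change of 3.86 with an SE of 0.78, adjusted p 1.17e-04). It was called with either subset of spheroid captures, at 2.48 with and 5.79 without spike-in, and in 15 of 15 alternatives. P4ha1 was 0 to 23.4 CPM (median 0.899) in spheroid, 0 to 77.7 CPM (median 4.58) in nude liver and 0.186 to 65.9 CPM (median 8.66) in RPC captures, and rose 3.75-fold in nude liver (log2 fold change of 1.91 with an SE of 0.68, adjusted p 0.0235) and 4.65-fold in RPC (log2 fold change of 2.22 with an SE of 0.66, adjusted p 0.00967). Against spheroid captures with spike-in the RPC value of P4ha1 was 2.03 (adjusted p 0.128). The nude liver call was lost with either subset of spheroid captures, at 1.75 (adjusted p 0.280) and 1.95 (adjusted p 0.0525), among captures low in hepatocyte markers (2.46 (adjusted p 0.0531)) and with the hepatocyte covariate (2.48 (adjusted p 0.0860)).

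Bnip3, a mitochondrial protein that drives the removal of mitochondria at low oxygen, went opposite ways. It was 0 to 266 CPM (median 18.8) in spheroid, 0 to 81.4 CPM (median 2.78) in nude liver, 0 to 174 CPM (median 1.88) in F1 liver and 3.28 to 412 CPM (median 97.9) in RPC captures. It fell 3.21-fold in nude liver (log2 fold change of -1.68 with an SE of 0.63, adjusted p 0.0305) and rose 2.70-fold in RPC captures (log2 fold change of 1.43 with an SE of 0.49, adjusted p 0.0286), with 6 of 33 and 20 of 24 captures above the spheroid median. Both calls depended on the subset of spheroid captures: against those with spike-in the values were -2.62 (adjusted p 0.0176) and 0.48 (adjusted p 0.611), and against those without -0.89 (adjusted p 0.356) and 2.25 (adjusted p 0.00224). The nude liver call was lost in 4 of 17 alternatives, the others being captures low in hepatocyte markers (-1.68 (adjusted p 0.171)), the hepatocyte covariate (-1.31 (adjusted p 0.637)) and libraries of at least 2000000 counts (-1.56 (adjusted p 0.0541)). By limma-voom Bnip3 was also lower in F1 liver (-2.24, adjusted p 0.0242).

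The other targets gave no call between captures by edgeR's main test, although alternatives called some of them. Ndrg1, a stress-responsive differentiation gene, had medians of 105, 33.0, 69.2 and 103 CPM in spheroid, nude liver, F1 liver and RPC captures (nude liver log2 fold change -1.18, adjusted p 0.0829). It was called lower there by limma-voom (-2.49, adjusted p 5.00e-04), with the replicate block (-1.69, adjusted p 0.0214) and with all groups in one fit (-1.26, adjusted p 0.0435), and higher in F1 than in nude liver by limma-voom (2.20, adjusted p 0.0100). Ddit4, an inhibitor of mTORC1, had 8.37, 8.58, 3.80 and 10.1 CPM, and Ankrd37 had 6.31, 0.268, 0 and 24.6 CPM. Ddit4 was called higher in nude liver with the hepatocyte covariate (2.82, adjusted p 0.0108), and Ankrd37 lower in F1 liver by limma-voom (-2.58, adjusted p 0.0106). Vegfa, the angiogenic growth factor, did not pass the filter over all captures: it was 0 to 8.10 CPM (median 0.542) in spheroid, 0 to 22.1 CPM (median 0) in nude liver, 0 to 3.45 CPM (median 0) in F1 liver and 0 to 15.9 CPM (median 0.922) in RPC captures. Car9, a carbonic anhydrase used as a marker of hypoxia, was counted in 1, 3, 2 and 3 captures and never exceeded 1.39 CPM in any of them. Adm, the vasodilator adrenomedullin, had no count in the 28 spheroid captures and counts in 1, 1 and 2 captures of the other groups.

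**Figure D4:**
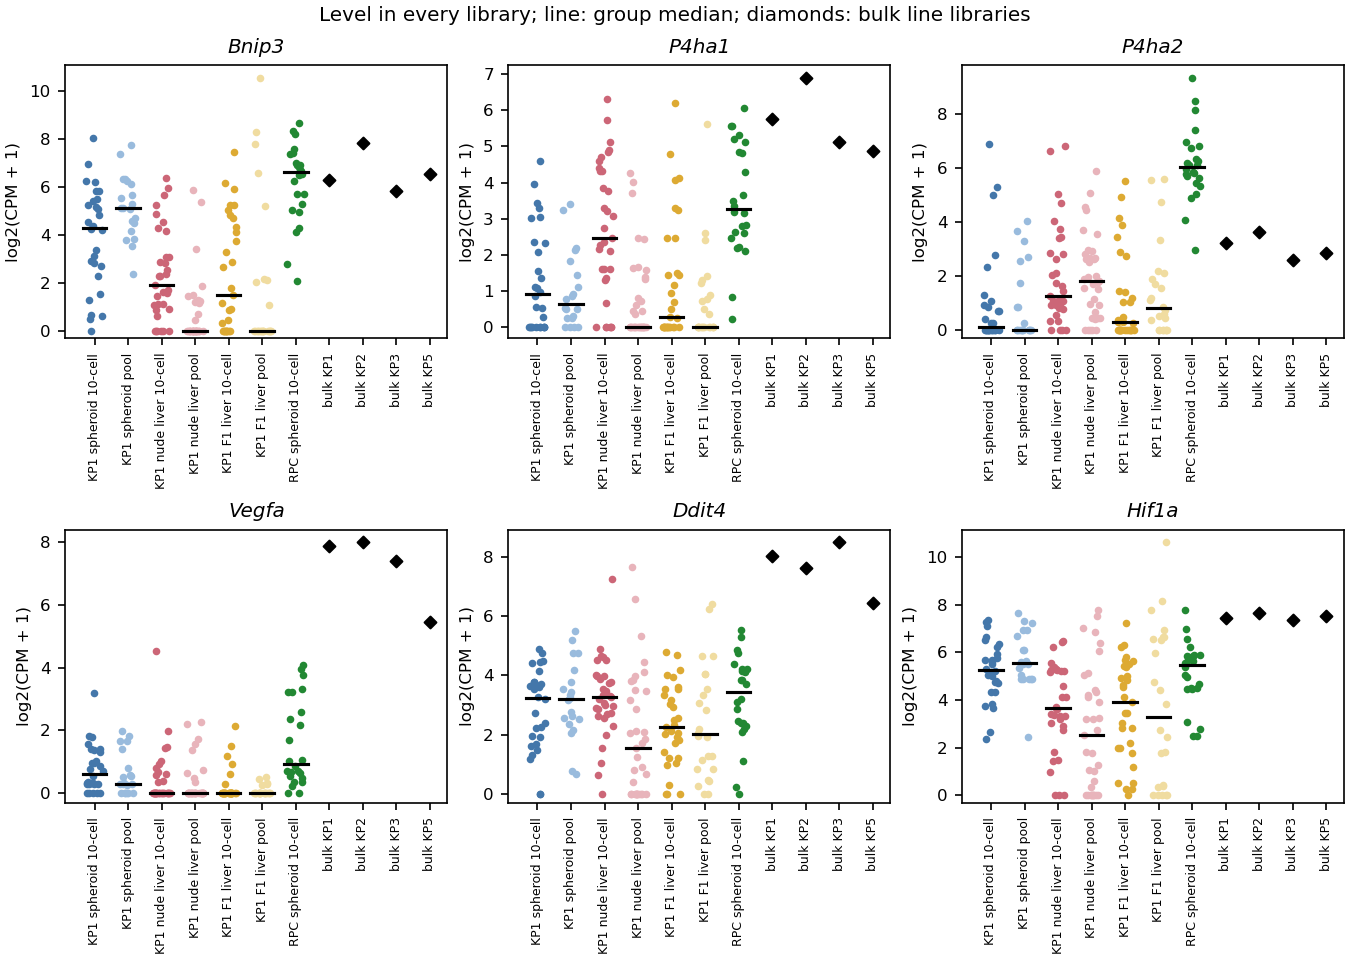
Log2(CPM + 1) of 6 members in every library, by group. Each dot is 1 library, the black line the group median and each diamond a bulk library made by another protocol. P4ha2 and Bnip3 have their highest medians among captures in RPC, and Vegfa and Ddit4 are far lower in captures than in bulk.

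In oxygen sensing, Hif1a encodes the oxygen-regulated subunit itself, which is controlled mainly at the protein level. Its RNA was 4.19 to 166 CPM (median 37.2) in spheroid, 0 to 87.5 CPM (median 11.9) in nude liver, 0 to 149.5 CPM (median 14.3) in F1 liver and 4.64 to 220.4 CPM (median 43.3) in RPC captures. It fell 2.65-fold in nude liver (log2 fold change of -1.41 with an SE of 0.44, adjusted p 0.00922), where 9 of 33 captures exceeded the spheroid median. The call was lost in 4 of 17 alternatives, at -1.45 (adjusted p 0.0786) among captures low in hepatocyte markers, -1.18 (adjusted p 0.0716) against spheroid captures without spike-in, -1.73 (adjusted p 0.227) with the hepatocyte covariate and -1.23 (adjusted p 0.0591) with the replicate block. In F1 liver limma-voom called Hif1a lower as well (-1.71, adjusted p 0.0119), and edgeR did not (adjusted p 0.306). Epas1 (HIF-2alpha), an endothelial and liver gene, was counted in 2 of 28 spheroid, 19 of 33 nude liver, 12 of 31 F1 liver and 9 of 24 RPC captures, with a highest value of 170.3 CPM in 1 F1 capture. Egln1, the main oxygen sensor, had medians of 14.2, 15.0, 8.37 and 14.3 CPM and was not called by edgeR, while DESeq2 called it lower in RPC captures (-1.08, adjusted p 0.0443). Egln3, its hypoxia-induced relative, had 0.841, 0.373, 0 and 4.18 CPM and passed the main filter only in the RPC comparison (-0.26, adjusted p 0.856). With a filter at an average of 5 CPM it was lower in F1 than in nude liver (-2.96, adjusted p 0.0230), as without a filter (-2.79, adjusted p 0.0214) and with all groups in one fit (-2.82, adjusted p 0.0139).

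Other genes of the same pathways were read from lists of 25 further hypoxia-pathway genes, 10 genes of the pyruvate dehydrogenase system and 7 of the pentose phosphate pathway. The counts called were few, and in RPC near the shares of all genes. In RPC captures 2 of 14 tested hypoxia-pathway genes rose (10.3% of all genes), Bnip3l (log2 fold change 1.14, adjusted p 0.0215) and Cited2 (log2 fold change 1.63, adjusted p 0.0478), and 1 fell (11.6%), the lipid droplet gene Plin2 (log2 fold change -5.04, adjusted p 5.55e-06), with a list median of 0.29. In nude liver 1 of 11 rose (17.7% of all genes), the prolyl hydroxylase Egln2 (log2 fold change 2.02, adjusted p 5.88e-04), and 4 fell (16%): Fam162a, Ero1l, Mxi1 and Higd1a. In F1 liver 2 of 12 fell (4.91%), Mxi1 and Higd1a, and none rose (7.73%). The list medians were -0.52 in nude liver and -0.70 in F1 liver, against -0.03 and 0.22 over all genes.

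Of 8 tested pyruvate dehydrogenase genes, 3 fell in nude liver and none rose (16% and 17.7% of all genes): the pyruvate carriers Mpc1 (log2 fold change -1.94, adjusted p 0.0170) and Mpc2 (log2 fold change -1.78, adjusted p 2.04e-04) and the subunit Dld (log2 fold change -1.65, adjusted p 0.0371). None was called in F1 liver. In RPC captures Pdha1 rose (log2 fold change 1.39, adjusted p 0.0112) and Dlat fell (log2 fold change -1.44, adjusted p 0.0190). In the pentose phosphate pathway Tkt fell (log2 fold change -1.32, adjusted p 0.00115) and Pgls rose (log2 fold change 1.59, adjusted p 1.22e-05) in nude liver, and Taldo1 rose in F1 liver (log2 fold change 1.11, adjusted p 0.00420). These were 1 of 5 tested pentose phosphate genes in each direction in nude liver and 1 of 5 in F1 liver, where 7.73% of all genes were higher. Of the 7 proliferation markers, 5 fell in nude liver, 2 in F1 liver and 1 in RPC captures (16%, 4.91% and 11.6% of all genes), and none rose. Their part in the differences above was not tested.

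The pools are splits of pooled material and not separate biological samples, so p-values between them set the group difference against the spread between splits only. In nude liver pools 5 of 26 tested members were higher than in spheroid pools (16.5% of 8010 genes were) and 4 lower (9.14% were). Tpi1 (3.06-fold, adjusted p 1.28e-10), Eno1, Pkm, Ldha (2.16-fold, adjusted p 8.67e-04) and Pfkl were higher, and Pfkp, Aldoa, Pgk1 and Bnip3 (13.5-fold, adjusted p 3.54e-04) lower. Bnip3 was counted in 12 of 35 nude liver pools and 20 of 20 spheroid pools. Only 2 nude liver pools had under 500 CPM of hepatocyte markers, and the pools' hepatocyte sums were 132 to 4160 CPM (median 1162). Pkm reversed against the 6 spheroid pools with spike-in (-0.16). The split over all genes went from 1323 higher and 732 lower to 1104 and 965 with library totals alone.

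In F1 liver pools against spheroid pools, 1 of 23 tested members was higher (8.94% of 7249 genes were), Pkm (log2 fold change of 0.75 with an SE of 0.23, adjusted p 0.0214), and 1 lower (2.65% were), Pdk1 (log2 fold change of -2.99 with an SE of 0.84, adjusted p 0.0129). The value of Pkm was -0.025 (adjusted p 0.986) against the 6 spheroid pools with spike-in. Between F1 and nude liver pools none of 22 members was higher (8.19% of 6010 genes were). At an unadjusted p under 0.05 edgeR gave 4 members higher, for which the share of all genes is not given here. RLE scaling called 1 member higher (9.32% of all genes were) and DESeq2 3 (10.8%). A single member was lower (3.69% of all genes were), Tpi1 (log2 fold change of -0.89 with an SE of 0.24, adjusted p 0.00823), the same gene and direction as between captures. F1 pools had the highest median spike-in share of the groups, 13.2%, and 17 of 24 were above 10%. Without a filter more members were called between pools, among them Slc16a1, higher than in spheroid pools in nude liver (6.41, adjusted p 1.81e-04) and F1 liver (5.34, adjusted p 5.98e-04), Vegfa, lower in F1 than in spheroid pools (-2.48, adjusted p 0.00828), and Bnip3, higher in F1 than in nude liver pools (5.51, adjusted p 2.75e-04). The fits without a filter called 26.7% of 20053 genes higher and 12.7% lower in nude liver against spheroid pools. For F1 against spheroid pools the shares were 17.1% and 11.2% of 18440, and for F1 against nude liver pools 12.0% and 17.5% of 19852. Library totals alone gave 273 higher and 404 lower genes instead of 648 and 192 for F1 against spheroid pools, and 166 and 386 instead of 492 and 222 between the liver pools.

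Pools carry the spread of the method without that between sets of 10 cells. Spread was taken as the distance of each library's log2(CPM + 1) from its group's median, regardless of sign, and compared between captures and pools with limma. In spheroids no gene was called (0% of 8600), and 5 of 28 tested members had an unadjusted p under 0.05, as did 510 of the 8600 genes. In nude liver 0.766% of 9397 genes were called but none of 30 members, and in F1 liver 1.48% of 8760 but none of 26 members. At an unadjusted p under 0.05, in either direction, were 11 members and 1367 genes in nude liver, and 6 members and 1558 genes in F1 liver. For the differences in this excess between environments, 0% of 9423 (nude liver against spheroid), 0.504% of 8932 (F1 liver against spheroid) and 0.106% of 9418 genes (F1 against nude liver) were called, and again no member. At an unadjusted p under 0.05 were 6, 7 and 3 members, and 1153, 1507 and 662 of all genes. The smallest adjusted p of a member, singled out after its value was seen, was that of Pgk1 in F1 liver against spheroid: its mean deviation was 0.99 in spheroid captures and 0.35 in spheroid pools, but 0.77 in F1 captures and 1.95 in F1 pools (difference -1.81, SE 0.49, adjusted p 0.0543). The spread between F1 pools thus exceeded that between F1 captures for this gene, and this was not particular to it. In F1 liver the median difference, captures minus pools, was -0.16 over all genes tested and -0.43 over members. Among libraries with under 10% spike-in these medians were 0.053 and 0.099, and 3 genes were called instead of 130.

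Whether members varied together from capture to capture was examined for 3 pairs in 7 groups, 21 correlations of log2(CPM + 1), with Benjamini-Hochberg adjustment over the 21 and 100000 permutations each (smallest possible p 1e-05). Bnip3 and Pgk1 rose and fell together across the 28 spheroid captures (Pearson r = 0.68, permutation p = 4.00e-05, adjusted 7.35e-04; Spearman rho = 0.62, permutation p = 5.50e-04, adjusted 0.00577). Without the 2 captures farthest from the Bnip3 median, r was 0.56. In 24 RPC captures r was 0.50 (permutation p = 0.0117, adjusted 0.0403; rho = 0.51, p = 0.0122, adjusted 0.0426; 0.54 without the 2 farthest), and in 33 nude liver captures 0.42 (permutation p = 0.0134, adjusted 0.0403; rho = 0.38, p = 0.0327, adjusted 0.0763; 0.41 without the 2 farthest). In F1 liver captures it was 0.045 (permutation p = 0.812; rho = 0.0062, p = 0.974, adjusted 0.982).

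Pgk1 and Ldha gave r = 0.51 in spheroid captures (permutation p = 0.0070, adjusted 0.0367; rho = 0.51, p = 0.0063, adjusted 0.0329; 0.48 without the 2 farthest) and 0.63 in RPC captures (permutation p = 8.20e-04, adjusted 0.0057; rho = 0.66, p = 5.50e-04, adjusted 0.00577; 0.50 without). Aldoa and Eno1 gave 0.68 in spheroid captures (permutation p = 7.00e-05, adjusted 7.35e-04; rho = 0.49, p = 0.0084, adjusted 0.0351), falling to 0.38 without the 2 farthest captures, and 0.50 in RPC captures (permutation p = 0.0125, adjusted 0.0403; rho = 0.58, p = 0.0033, adjusted 0.0234; 0.41 without). By Pearson's r neither pair passed in liver captures, although Pgk1 and Ldha had rho = 0.43 in F1 liver (permutation p = 0.0155, adjusted 0.0464). None of the 9 correlations in pools passed, where Bnip3 and Pgk1 had r of -0.10, -0.075 and 0.14 in spheroid, nude liver and F1 liver pools. Of the 21, 7 had an adjusted p under 0.05 for Pearson's r, and that of Bnip3 and Pgk1 in nude liver did not pass by rho. With CPM scaled by TMM factors only 2 did, which are not named here, so no single pair above is shown to hold under that scaling. No gene pairs outside these 3 were examined, so the correlations are not set against those of other genes. Within the spheroid captures with and without spike-in the same pairs gave 6 further correlations, adjusted over the 6, with exact permutation over the 9 and 100000 permutations over the 19. Bnip3 and Pgk1 had r = 0.82 (exact permutation p = 0.00537, adjusted 0.0106; rho = 0.73, p = 0.0311, adjusted 0.0467; 0.42 without the 2 farthest) in the 9 and r = 0.62 (permutation p = 0.00308, adjusted 0.00924; rho = 0.53, p = 0.0216, adjusted 0.0467; 0.48 without the 2 farthest) in the 19. Pgk1 and Ldha had r = 0.61 (exact permutation p = 0.0773, adjusted 0.0773; rho = 0.75, p = 0.0255, adjusted 0.0467; 0.71 without the 2 farthest) in the 9 and r = 0.61 (permutation p = 0.00709, adjusted 0.0106; rho = 0.39, p = 0.0986, adjusted 0.118; 0.33 without the 2 farthest) in the 19. Aldoa and Eno1 had r = 0.91 (exact permutation p = 0.00223, adjusted 0.00924; rho = 0.82, p = 0.0108, adjusted 0.0467; 0.65 without the 2 farthest) in the 9 and r = 0.50 (permutation p = 0.0414, adjusted 0.0497; rho = 0.24, p = 0.318, adjusted 0.318; 0.16 without the 2 farthest) in the 19. Differences in r between groups were not tested.

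**Figure D5:**
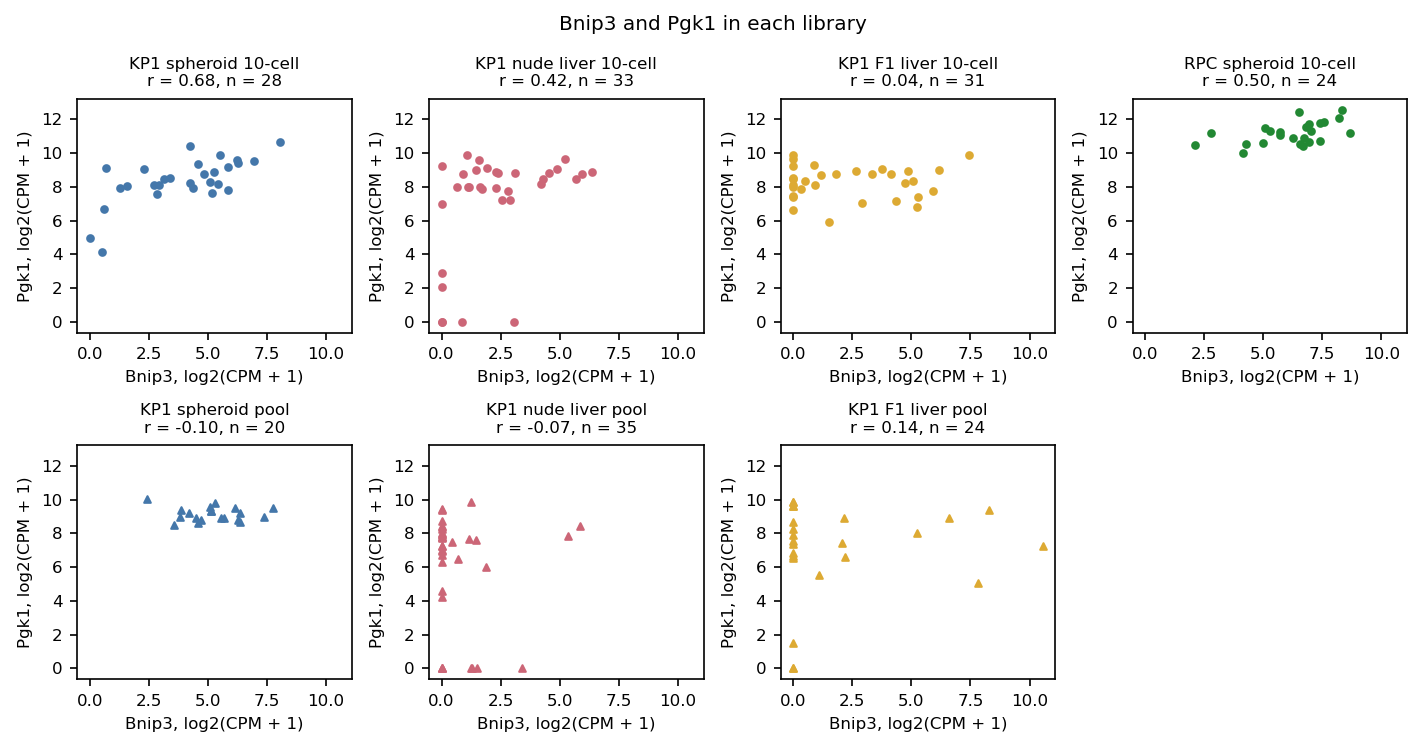
Bnip3 against Pgk1, both as log2(CPM + 1), in each group of captures (dots) and pools (triangles), 1 symbol per library, with Pearson's r and the number of libraries. The cloud tilts upward in spheroid captures (r = 0.68) and is flat in spheroid pools (r = -0.10).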

How the data were processed

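RNA was measured in 195 small libraries (10-cell laser captures or 10-cell equivalents of pooled material, amplified by poly(A) PCR per the labels' protocols) and 4 bulk libraries. The authors deposited 1 table of expected counts per gene, of which 10.7% of the values were not whole; the submitters' processing notes name RSEM, Bowtie2, GRCm38 and GRCh38.p12, with neither versions nor roles. Expected counts were rounded, and 92 spike-in transcripts were left out of totals and tests. The genes and gene lists were chosen with earlier results of these data known.

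Each pair of groups was fitted over all genes with edgeR 4.0.16 in R 4.3.3 (TMM scaling, filterByExpr, robust quasi-likelihood F test), and a gene was called at a Benjamini-Hochberg adjusted p under 0.05. SE was the absolute log2 fold change divided by the square root of F. Spread was tested with limma 3.58.1 on genes that averaged 5 CPM or more. The scripts were tested on simulated data. Correlations used a pseudocount of 1. Sequence copies were found with blastn 2.17.0 (at least 200 aligned bases, 95% identity). Named genes were at most the 6 largest called changes per direction plus 13 genes always described. Alternatives covered scaling, test (DESeq2 1.42.0, limma-voom), filter, depth, spike-in share, hepatocyte markers, subsets of libraries and copies. The subset of liver libraries low in hepatocyte markers, the sums with sequence copies and the correlations within subsets of spheroid captures were chosen after seeing the data. Replicate numbers in the labels did not pair the samples.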

Additional observations from a re-analysis of the deposited data

Results flagged for a closer look

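The effects of the liver environments against spheroids differed between hosts for 6 genes, by the test of F1 against nude liver captures itself (edgeR, adjusted p under 0.05). F1 minus nude liver was 1.67 for Pfkp, 2.02 for Ldhb, 2.11 for Pdk1 and 0.98 for Gapdh on the log2 scale, and -0.55 for Tpi1 and -0.88 for Eno1. Between captures low in hepatocyte markers, only Gapdh of these was called (1.15 (adjusted p 0.0227)). Host strain and immune state cannot be told apart.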

How the results depend on the processing

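The number of members called was within 1.5 times that reported under all alternatives but the following. In captures of nude liver against spheroid (10 called) it was 6 with a hepatocyte marker covariate (all higher; Tpi1, Pkm and Ldha of the 10, with Ddit4, Slc16a3 and Gpi1), 5 with liver captures low in those markers, and 5 and 6 with spheroid captures with and without spike-in. For F1 liver against spheroid (6) it was 0 with spheroid captures with spike-in and 1 with F1 captures low in Rpl19-ps11. For F1 against nude liver (6) it was 3 with library totals alone, 1 with libraries of at least 2000000 counts, 1 with captures low in hepatocyte markers and 0 with F1 captures low in Rpl19-ps11. For RPC (12) it was 5 with spheroid captures with spike-in. No called member of a comparison of captures changed sign. For nude liver pools (9) it was 16 with limma-voom (4 higher, 12 lower), 14 with the replicate block (4 higher, 10 lower), against 5 higher and 4 lower, 4 with all groups in one fit, 0 with the hepatocyte covariate and 3 with spheroid pools with spike-in. Over all genes limma-voom gave 1286 higher and 3491 lower and the block 906 and 1995, against 1323 and 732. For F1 pools against spheroid pools (2) it was 1 with library totals, 12 with limma-voom (1 higher, 11 lower), 7 with DESeq2, 5 without a filter, 5 with the replicate block, 8 with spike-in under 10%, 4 with the covariate, 0 with spheroid pools with spike-in and 7 with F1 pools low in Rpl19-ps11. Over all genes limma-voom gave 393 higher and 2946 lower there, the block 219 and 1618 and DESeq2 1638 and 410, against 648 and 192. Between liver pools (1) it was 2 with RLE scaling, 5 with DESeq2, 5 without a filter, 3 with a filter at an average of 5 CPM, 0 with the replicate block, 2 with libraries of at least 2000000 counts, 2 with spike-in under 10%, 4 with all groups in one fit, 0 with the covariate, 0 with pools low in hepatocyte markers and 2 with F1 pools high in Rpl19-ps11. In nude liver pools the log2 fold change turned to 0.36 for Aldoa, -0.30 for Eno1, -0.46 for Ldha and 1.55 for Bnip3 with the covariate, to -0.54 for Pfkl and 0.35 for Aldoa with pools low in those markers, and to -0.16 for Pkm with spheroid pools with spike-in, as did Pkm in F1 pools (-0.025). The covariate is nearly the same as the group, since spheroids lack these markers. With deviations from the mean, 2 members were called for spread in nude liver, 6 in F1 liver, 5 in F1 liver against spheroid and 1 in F1 against nude liver, and 3 in F1 liver against spheroid among genes averaging 20 CPM or more. Over all genes these settings called 385 of 9397, 1094 of 8760, 797 of 8932, 194 of 9418 and 106 of 5182 in the same order. Of the correlations, 2 of 21 passed with TMM-scaled CPM, against 7. The causes were not tested.

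With the replicate block the captures gave 11, 4, 5 and 12 called members in nude liver, F1 liver, F1 against nude liver and RPC, and 0 in each comparison of spread. Over all genes the block gave 1337 higher and 1398 lower, 278 and 619, 378 and 508, and 1256 and 763 in the same order. Without it these were 1390 and 1257, 565 and 359, 745 and 558, and 885 and 1000. The replicate numbers do not pair the samples: between same-numbered samples the median correlation of deviations lay between -0.0038 and 0.0092, and at most 2 samples per comparison correlated best with their own number. At these depths Hk2, Vegfa, Car9, Adm, Epas1 and Slc16a1 had few or no counts in most captures, which limits the precision of their values; the part of depth in their levels was not tested.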

Other observations

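Several hypoxia-response genes that were low in captures had higher levels in the bulk libraries of whole spheroids, which have 1 library per line and another protocol. Vegfa was at 230.4, 254, 167 and 42.9 CPM in KP1, KP2, KP3 and KP5, against a median of 0.542 CPM in the 28 KP1 spheroid captures. Ddit4 had 260.2, 199, 362 and 86.0 CPM, against 8.37 in the captures, and Slc16a1, the lactate transporter, 53.2, 35.0, 42.3 and 27.4 CPM. Car9 stayed under 2 CPM in all 4. The 25 further hypoxia-pathway genes summed to 1216 CPM in bulk KP1 and to a median of 888 CPM in the KP1 spheroid captures. Genes outside these pathways also differed, in both directions: Cap1 had 4974 CPM in bulk KP1 and a mean of 7.41 CPM in the captures, and Uqcrh 31.6 and 2029 CPM. The share of all genes that differed so was not computed. Protocol and cells sampled cannot be told apart in these libraries.

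KP2 had the highest bulk levels of Pgk1 and Bnip3 of the 4 lines: 602 CPM of Pgk1, against 221, 144 and 298 in KP1, KP3 and KP5, and 226 CPM of Bnip3, against 77.3, 56.7 and 92.3.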
